A study of Mus musculus with 6 samples.

Results

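The genes described here encode the subunits of the AMPA and NMDA receptors, the ionotropic glutamate receptors that carry most fast excitatory transmission in the hippocampus. They were chosen by name and comprise 4 AMPA receptor genes (Gria1, Gria2, Gria3 and Gria4) and 6 NMDA receptor genes (Grin1, Grin2a, Grin2b, Grin2c, Grin2d and Grin3a), 10 of 54838 genes in the deposited table. All 10 passed the filter on low counts, which left 19087 genes to test. RNA sequencing of polyA RNA compared hippocampi of 3 wild-type females with those of 3 FVB/NJ-Tg(ORAI1)Ibd females, all aged 7 months. The transgenic animals overexpress human ORAI1, the pore subunit of store-operated calcium channels, in neurons from a Thy1.2 cassette. They belong to 1 line, so that the transgene and its insertion site cannot be told apart, and the sources used here do not say whether the wild-type mice were littermates. Each library came from an individual hippocampus.

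An AMPA receptor is built from GluA subunits and opens within milliseconds of glutamate binding. Receptors that contain GluA2, the product of Gria2, pass little calcium, because the codon for a glutamine in the pore loop is edited in the RNA to one for arginine, whereas receptors without GluA2 let calcium through. An NMDA receptor needs the obligatory GluN1 subunit, the product of Grin1, together with GluN2 or GluN3 subunits. In receptors of GluN1 and GluN2 subunits, magnesium in the pore limits the current until the membrane is depolarised. The asparagines of the pore loop take part in that block and in calcium entry. Both receptors are central to long-term potentiation at the synapses of hippocampal area CA1.

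The stretch of coding sequence around this pore codon is shown because it is where the AMPA subunits part in function, and because it shows how alike genes are that had to be counted separately. The sequences were read from the GENCODE M21 transcripts (build GRCm38) on the coding strand, with 24 bases on each side and the codon of the genome in capitals, a glutamine codon in the AMPA genes and an asparagine codon in the NMDA genes shown.
Gria1: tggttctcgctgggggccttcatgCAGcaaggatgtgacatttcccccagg
Gria2: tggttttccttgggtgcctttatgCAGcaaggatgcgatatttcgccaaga
Gria3: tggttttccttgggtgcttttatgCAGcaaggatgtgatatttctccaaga
Gria4: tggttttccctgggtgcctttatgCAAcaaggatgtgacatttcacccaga
Grin1: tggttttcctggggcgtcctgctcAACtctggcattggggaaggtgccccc
Grin2a: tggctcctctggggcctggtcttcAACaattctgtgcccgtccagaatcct

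The Gria2 codon is codon 607, on the minus strand at chr3:80706911-80706913, and carries the unedited glutamine in the genome. Over the 51 bases shown, Gria2 and Gria3 are identical at 48 positions and Gria1 and Gria2 at 41, whereas Grin1 and Grin2a share 23. None of the 45 pairs of genes shares an identical stretch of 65 bases, the shortest read that was mapped, in any annotated transcript. The share of edited Gria2 transcripts was not analysed here, since the table holds counts per gene.

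Library depth ranged from 37414241 to 52497799 counts assigned to genes. Orai1 had 376, 302 and 306 counts in the wild-type mice and 14620, 12634 and 11834 in the transgenic mice. Its log2 fold change was 5.42 (standard error 0.07, edgeR adjusted p = 3.8e-08), which is in the direction the labels give. The counts are those of the mouse gene, whereas the transgene is human. Whether the added reads came from the transgene or the mouse gene was not tested. All 10 neuronal markers and all markers of CA1 (6), dentate gyrus (8) and CA3/CA2 (6) passed the filter, with none called between genotypes. All 17 choroid plexus markers were lower in the transgenic libraries, where their summed level was 561 to 874 CPM (counts scaled to the TMM-adjusted library size), against 3886 to 6031 CPM in the wild-type libraries. The choroid plexus is an epithelium beside the hippocampus that is not part of it. The libraries also stood apart in a way that crossed the genotypes. By the correlation of deviations from the genotype means over 11191 genes, wild-type mice 1 and 2 went with transgenic mouse 1 (0.399 and 0.4), and wild-type mouse 3 with transgenic mice 2 and 3 (0.536 and 0.388). For the receptor genes, values without single mice are given below where they change a call, and for some genes where they move a value.

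In wild-type hippocampus the receptor genes spanned a wide range of levels, given here as FPKM, which is CPM divided by the exon length of the gene in kilobases. Gria1, which encodes the main subunit inserted during potentiation, was the most abundant at 161 ± 9.2 FPKM (SD, n = 3 for all values of this kind). Gria2 followed at 63.2 ± 5.9 FPKM and Grin1 at 51.1 ± 1.4 FPKM. Among the GluN2 genes, Grin2b at 24.9 ± 1.3 FPKM stood above Grin2a at 17.3 ± 0.88 FPKM, the pair that dominates adult forebrain NMDA receptors. Gria3 lay between them at 22.4 ± 0.97 FPKM. Gria4, a subunit prominent in interneurons and in other brain regions, reached 11.9 ± 0.61 FPKM, and Grin2c, best known from cerebellum, 11.4 ± 0.43 FPKM. Grin3a, whose product lowers calcium entry through NMDA receptors, had 3.88 ± 0.53 FPKM, and Grin2d, a subunit of slow receptors, 3.04 ± 0.35 FPKM. The ranges of the 3 mice overlapped for the neighbours Gria4 and Grin2c and for Grin3a and Grin2d, and for no other neighbours in this order. The order depended on the length used. With the length of the longest coding transcript, Grin1 at 116 FPKM ranked above Gria2 at 94.7 FPKM, and 6 of the 10 genes kept their rank.

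**Figure D1:**
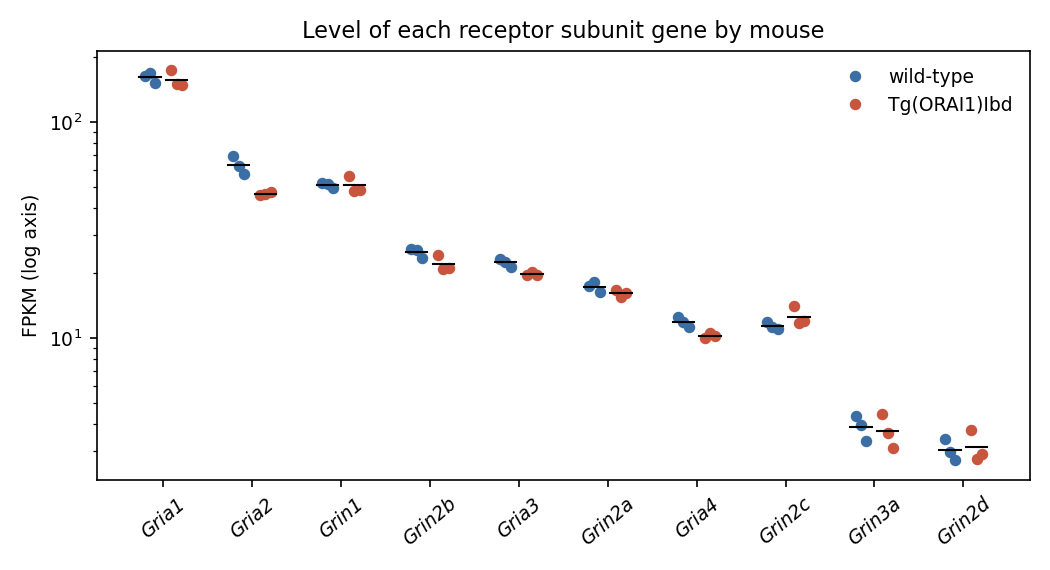
FPKM of the 10 receptor subunit genes on a log axis, in order of their wild-type mean, with 1 dot per mouse (blue wild-type, red transgenic) and a bar at each group mean. Gria1 lies near 161 FPKM and Grin2d near 3.04 FPKM in wild-type mice, and for Gria2, Gria3 and Gria4 every transgenic dot lies below every wild-type dot.

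The genotypes were then compared gene by gene with edgeR's quasi-likelihood test, adjusted over all 19087 genes. Of the 10 receptor genes, 1 passed an adjusted p of 0.05 and it was lower in the transgenic mice, where 4% of all tested genes were called lower and 7.1% were called in either direction. At an unadjusted p under 0.05 there were 4 of 10, against 27.8% of all genes. In 3 of 10 genes all transgenic mice lay below all wild-type mice, against 17.9% of all genes (34.9% were separate in either direction). The DESeq2 Wald test called 3 of the 10, all lower (Gria2, Gria3 and Gria4), where it called 6.16% of all genes lower and 11.7% in either direction. The median log2 fold change was -0.08 over the 10 genes and -0.01 over all genes tested.

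**Figure D2:**
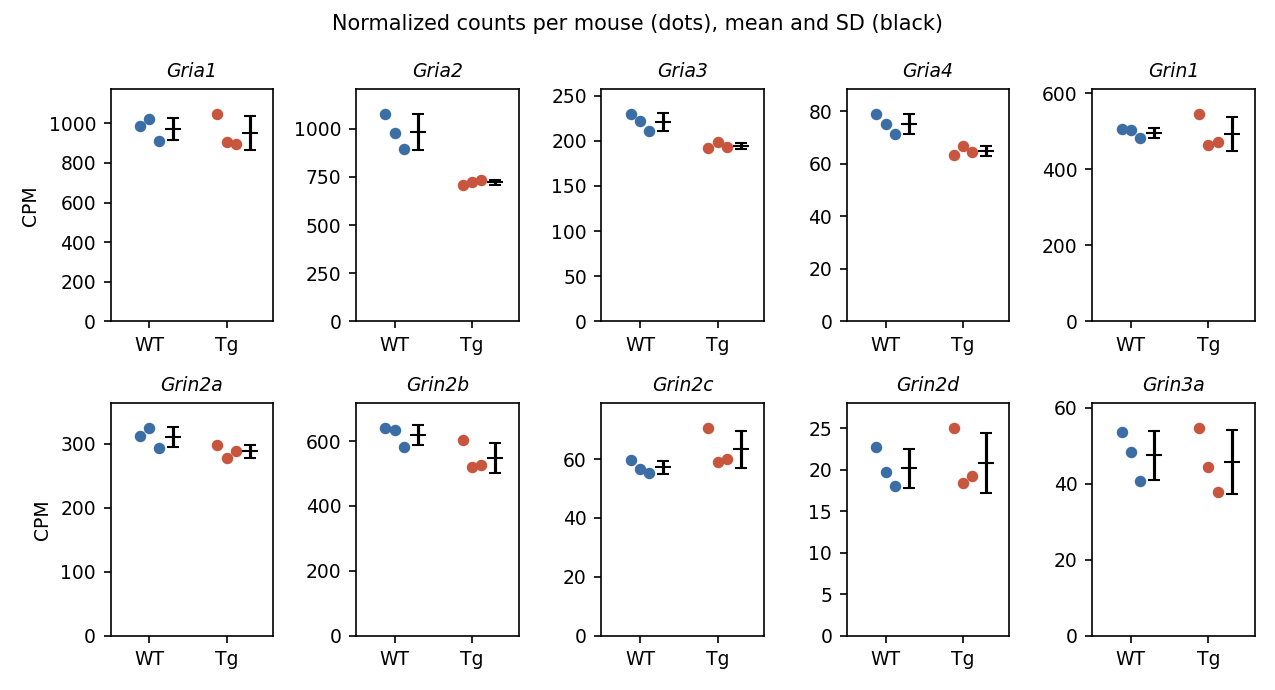
CPM of each receptor subunit gene in the 3 wild-type (WT, blue) and the 3 transgenic (Tg, red) mice, with each vertical axis starting at 0 and the group mean and SD in black. The groups are apart for Gria2, Gria3 and Gria4 and overlap for the other genes.

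Gria2 was the gene called. Its gene lies on chromosome 3 (minus strand, chr3:80681450-80802835, GRCm38) and yielded 27462 to 56392 counts per library. Its level was 1077, 976 and 893 CPM in the wild-type mice and 710, 724 and 733 CPM in the transgenic mice. All transgenic values lay below the lowest wild-type value, and they were close together, whereas the wild-type mice were spread over a wider range. The fitted change was -26.5%, a log2 fold change of -0.44 (standard error 0.07, 95% interval -0.61 to -0.27, edgeR adjusted p = 0.0236). A total of 1560 of the tested genes had a more negative log2 fold change. In bulk tissue, fewer cells of a type and less RNA per cell cannot be told apart.

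The call for Gria2 depended on single libraries and on whether GC offsets were used. It was lost without wild-type mouse 1 (edgeR adjusted p = 0.103) or wild-type mouse 2 (adjusted p = 0.108). It was also lost without transgenic mouse 2 (adjusted p = 0.076) or transgenic mouse 3 (adjusted p = 0.0911). Without these mice in turn, 77, 94, 192 and 108 genes were called over the whole table, against 1355 with all 6 libraries. The unadjusted edgeR p of Gria2 was then 0.0013, 0.0022, 0.0021 and 0.0024. Its log2 fold change lay between -0.50 and -0.36 over all 6 omissions. With offsets that remove a smooth trend of the counts on transcript GC content in each library, the log2 fold change was -0.17 (95% interval -0.39 to 0.05, edgeR adjusted p = 0.353). With offsets from the mean GC content of all transcripts of a gene, 43.3% for Gria2, it was -0.30 (edgeR adjusted p = 0.079), an alternative chosen after seeing the data. The longest coding transcript of Gria2 has a GC content of 36.8%, the lowest of the 10 genes, and falls in the lowest decile of all genes by GC content, whose median log2 fold change was -0.20.

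Gria3 and Gria4, the other AMPA subunits with fully separate groups, showed smaller differences that did not pass. The wild-type mice had 230, 222 and 211 CPM of Gria3 and the transgenic mice 192, 198 and 193 CPM, for a log2 fold change of -0.18 (standard error 0.05, edgeR adjusted p = 0.0574). Gria4 had 78.9, 75.1 and 71.2 CPM against 63.1, 66.7 and 64.3 CPM, for a log2 fold change of -0.21 (standard error 0.05, edgeR adjusted p = 0.0510). Without wild-type mouse 3 Gria4 was called (log2 fold change -0.25, edgeR adjusted p = 0.0484). In both genes the highest transgenic mouse lay below the lowest wild-type mouse. With GC offsets the log2 fold changes were -0.05 for Gria3 and -0.10 for Gria4 (edgeR adjusted p = 0.655 and 0.304). Of 13 interneuron markers, 3 were called lower in the transgenic libraries and none higher, against 4% of all genes called lower. The list's median log2 fold change was -0.01, and its summed levels were 1027 to 1214 CPM against 1146 to 1307 CPM in wild-type. The 3 (Gad2, Reln and Erbb4, named after their values were seen) had log2 fold changes of -0.52, -0.47 and -0.56. With GC offsets these values were -0.40, -0.48 and -0.38, and none of the 13 passed. Others of the 13, not called, lay higher in the transgenic libraries, without GC offsets by a log2 fold change of up to 0.23. None of 9 thalamus markers was called. An unadjusted p under 0.05 was found for 4 of these 9, against 27.8% of all genes. The same count was 5 of 13 for interneuron, 2 of 8 for microglia and 2 of 10 for neuronal markers. For the thalamus markers the median log2 fold change was -0.19, and the summed levels were 176 to 254 CPM against 249 to 283 CPM. None of 8 microglia markers was called, with a median of 0.32. The part of these markers, and of the choroid plexus markers given above, in the differences of the receptor genes was not tested. The summed neuronal markers were 7596 to 7756 CPM in transgenic and 7690 to 8049 CPM in wild-type libraries, with a median log2 fold change of -0.0002.

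Gria1 overlapped between genotypes. The wild-type mice measured 987, 1022 and 913 CPM and the transgenic mice 1048, 906 and 894 CPM, with the highest and the lowest of the 6 values both in the transgenic group. The log2 fold change was -0.04 (95% interval -0.22 to 0.15, edgeR adjusted p = 0.799).

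None of the 6 NMDA receptor genes passed the test over all 6 libraries. Grin1, which every NMDA receptor contains, was at 505, 502 and 481 CPM in the wild-type group and at 545, 463 and 471 CPM in the transgenic group, and its log2 fold change was -0.01 (95% interval -0.17 to 0.16, edgeR adjusted p = 0.956). Transgenic mouse 1 gave its highest value and the other transgenic mice the lowest values. Grin2b, whose subunit gives receptors slow kinetics and binds CaMKII, had 640, 634 and 582 CPM against 602, 519 and 525 CPM, for a log2 fold change of -0.17 (95% interval -0.34 to -0.003, unadjusted p = 0.0470, edgeR adjusted p = 0.174). Here only transgenic mouse 1 reached into the wild-type range. Without that mouse Grin2b was called (log2 fold change -0.24, edgeR adjusted p = 0.0491), whereas without transgenic mouse 2 the log2 fold change was -0.11 (edgeR adjusted p = 0.478). Grin2a, the subunit that rises during postnatal development, had 312, 324 and 293 CPM against 299, 278 and 289 CPM (log2 fold change -0.10, edgeR adjusted p = 0.257). On omission of a mouse it ranged from -0.14 to -0.05.

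The rarer NMDA subunits were compared last. Grin2c was at 59.6, 56.6 and 55.3 CPM in the wild-type group and at 70.5, 59.2 and 60.1 CPM in the transgenic group, the most positive log2 fold change of the 10 genes at 0.15 (95% interval -0.03 to 0.32, edgeR adjusted p = 0.248). It was 0.06 without transgenic mouse 1 and 0.01 with GC offsets. Grin2d had 22.8, 19.8 and 18.1 CPM against 25.0, 18.4 and 19.3 CPM (log2 fold change 0.05, edgeR adjusted p = 0.854). Grin3a had 53.6, 48.4 and 40.8 CPM against 54.7, 44.5 and 38.0 CPM (log2 fold change -0.06, edgeR adjusted p = 0.831). For Grin2d and Grin3a the highest of the 6 values came from transgenic mouse 1, and the intervals, -0.27 to 0.36 and -0.39 to 0.28, both include the value of -0.21 seen for Gria4 but not the -0.44 of Gria2.

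**Figure D3:**
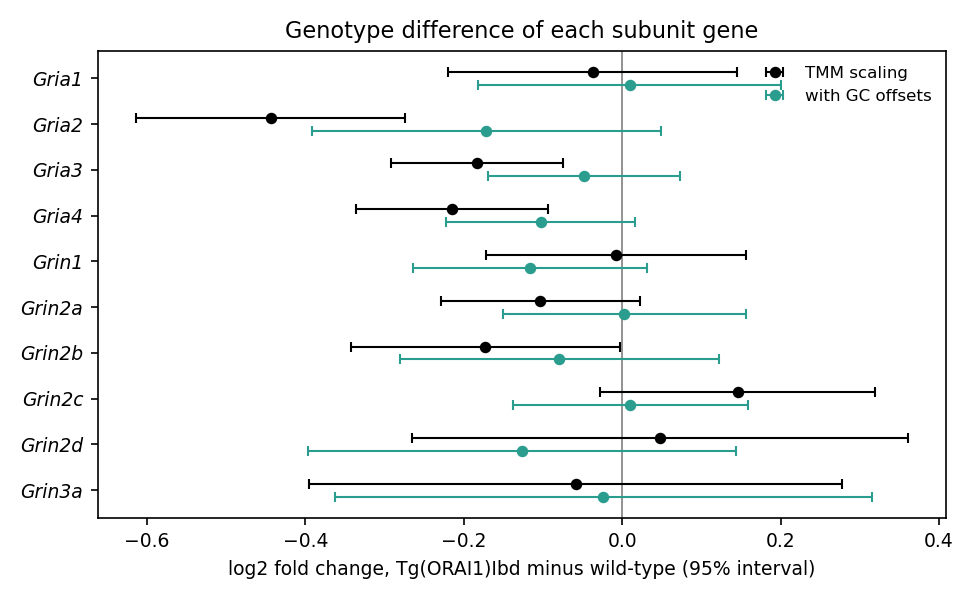
Log2 fold change of each receptor subunit gene, transgenic minus wild-type, as dots with 95% intervals from edgeR, in black with TMM scaling and in green with GC offsets. Without GC offsets the intervals of Gria2, Gria3, Gria4 and Grin2b lie below 0, and with them all 10 intervals include 0.

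Across the 10 genes the fold changes followed transcript GC content. The AMPA genes other than Gria1 have GC contents of 36.8% to 44.3%, whereas Grin1, Grin2c and Grin2d have 59.4% to 65%. Spearman's rho of the log2 fold change with GC content was 0.95 and Pearson's r was 0.89 over the 10 genes, which were measured in the same 6 libraries. Over 19079 genes with a known GC content the rho was 0.40. When all genes were divided into deciles by GC content, the median log2 fold change rose from -0.20 in the lowest decile to 0.14 in the highest, and the share called lower fell from 9.43% to 1.31%. With GC offsets none of the 10 receptor genes passed, where 2.1% of all genes did, 400 in number, and 17 of 17 choroid plexus markers still did. The part of GC content in the difference of Gria2 was measured only through these offsets, and a difference between genotypes in the RNA of GC-poor genes cannot be told apart from one arising in the libraries.

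**Figure D4:**
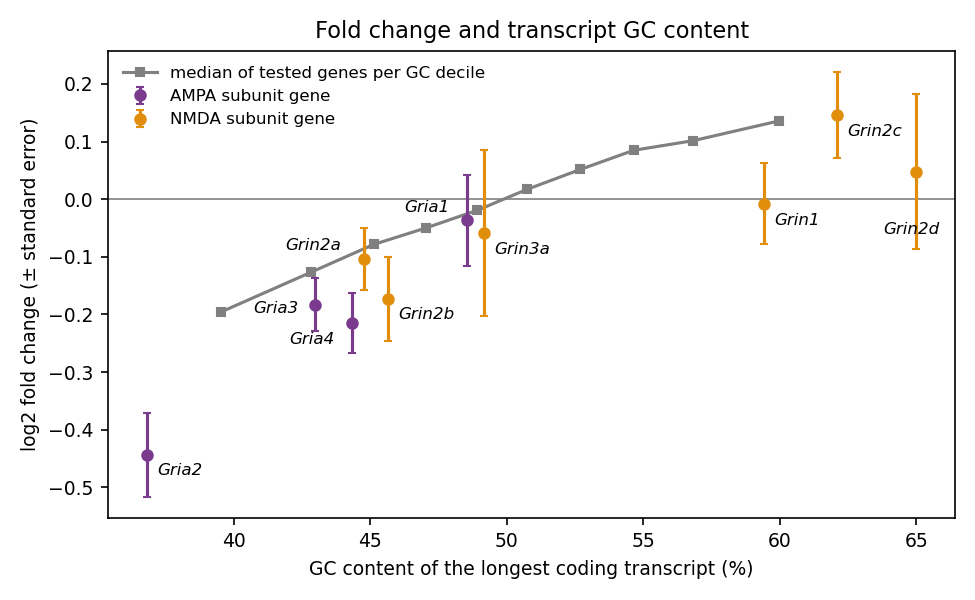
Log2 fold change (transgenic minus wild-type, with standard error) of each receptor subunit gene against the GC content of its longest coding transcript, with AMPA genes in purple and NMDA genes in orange. Grey squares give the median of all tested genes per decile of GC content, from -0.20 to 0.14, and Gria2, at 36.8% GC, lies lowest.

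The make-up of each receptor family in RNA was compared next, because the channel's properties follow from the proportions of its subunits. The shares are of RNA in bulk tissue, and the subunit composition of the receptors themselves was not measured. Gria2 made up 25.8%, 23.6% and 23.8% of the summed AMPA subunit FPKM in the wild-type mice and 18.4%, 20.5% and 20.97% in the transgenic mice. The groups did not overlap, and the difference of -4.46 percentage points had an exact two-sided permutation p = 0.1, the smallest that 3 against 3 mice allows. Gria1 made up 62.3% ± 1.4 in wild-type and 67.2% ± 2.2 in transgenic mice (SD, n = 3). The shares of Gria3 (8.67% ± 0.20 and 8.47% ± 0.54) and Gria4 (4.61% ± 0.12 and 4.41% ± 0.33) overlapped. The log2 ratio of Gria1 to Gria2 was 1.24, 1.43 and 1.40 in wild-type and 1.93, 1.69 and 1.65 in transgenic mice, higher in all 3 of the latter by 0.40 on average (exact permutation p = 0.1, adjusted over 5 ratios and shares 0.125). With GC offsets this difference was 0.18, and that of the Gria2 share was -2.02 percentage points. The Gria2 share was then 22.7% to 23.9% against 20.8% to 21.6%, and the Gria1 share 62.8% to 64.5% against 65.7% to 66.3%. These shares depended on the length used. With the length of the longest coding transcript Gria1 made up 53.8% and 58.9% and Gria2 29.0% and 24.1%, both without overlap.

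Among the NMDA genes, Grin1 made up 45.8% ± 0.67 of the summed FPKM in wild-type and 46.9% ± 0.22 in transgenic mice. The share of Grin2b was 22.3% ± 0.26 against 20.4% ± 0.06, and that of Grin2c was 10.2% ± 0.24 against 11.6% ± 0.14, with no overlap between genotypes in these or in Grin1. These shares depended on the length used. With the length of the longest coding transcript Grin1 made up 62.8% and 63.8%, Grin2b 13.9% and 12.6%, and Grin2c 6.33% and 7.15%, without overlap for Grin2b and Grin2c but with overlap for Grin1. With GC offsets, added after seeing the data, Grin1 made up 47.1% and 45.7%, the opposite direction, Grin2b 21.4% and 21.3%, with overlap, and Grin2c 10.5% and 11.2%. The log2 ratio of Grin2a to Grin2b, which rises as hippocampal synapses mature, was -0.53 ± 0.03 in wild-type and -0.46 ± 0.08 in transgenic mice and overlapped (exact permutation p = 0.3). The log2 ratio of Grin1 to all GluN2 genes differed by 0.06 (exact permutation p = 0.1), and with GC offsets by -0.08. The summed AMPA subunit level was 259 ± 15 FPKM against 234 ± 13 FPKM, and the log2 ratio of AMPA to NMDA subunits was 1.21 ± 0.03 against 1.11 ± 0.05, a difference of -0.10 (exact permutation p = 0.1) that became 0.03 with GC offsets. The exact permutation test used for these 5 quantities could not go below p = 0.1 with 3 mice a group.

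**Figure D5:**
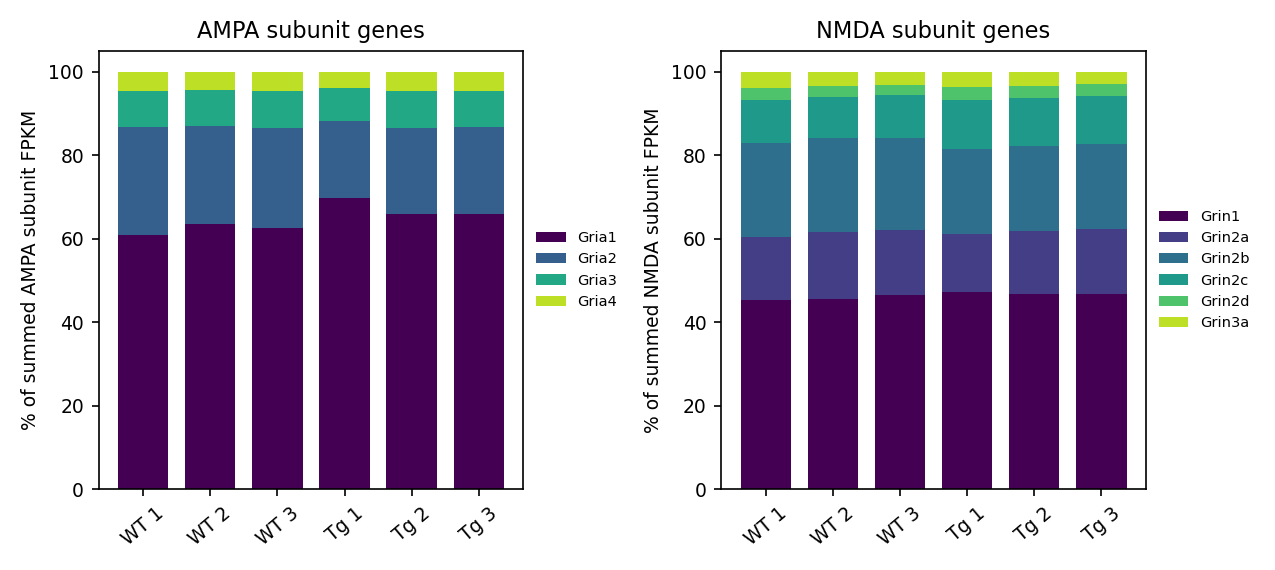
Share of each gene in the summed FPKM of its family, in percent, as stacked bars for each wild-type (WT) and transgenic (Tg) mouse, with AMPA genes on the left and NMDA genes on the right. The Gria2 share is 23.6% to 25.8% in wild-type and 18.4% to 20.97% in transgenic mice.

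The partners of these receptors were read from 4 lists. Among the other ionotropic glutamate receptor genes, which encode kainate, delta and GluN3B subunits, 1 of 7 tested was higher and none lower, against 3.1% of all genes called higher. It was Grik5, an accessory kainate receptor subunit, at 232 ± 5.2 CPM in the wild-type group and 276 ± 9.8 CPM in the transgenic group (log2 fold change 0.25, edgeR adjusted p = 0.0279). Grin3b, the remaining NMDA receptor gene, did not pass the filter on low counts. Among 16 AMPA receptor auxiliary and assembly genes, 1 was higher and 1 lower, against 3.1% and 4% of all genes. Frrs1l, which helps to assemble AMPA receptors in the endoplasmic reticulum, fell from 393 ± 10.4 to 326 ± 9.8 CPM (log2 fold change -0.27, edgeR adjusted p = 0.0264). Cpt1c, a neuronal protein of the same compartment that associates with AMPA receptors, rose from 136 ± 4.2 to 159 ± 2.6 CPM (log2 fold change 0.22, edgeR adjusted p = 0.0315).

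Of 21 anchoring and trafficking genes, 1 was higher and 2 were lower, against the same 3.1% and 4%. Nptx1, a secreted pentraxin that clusters AMPA receptors, rose from 635 ± 29 to 816 ± 55 CPM (log2 fold change 0.36, edgeR adjusted p = 0.0279). Lin7a, a scaffold protein of the synapse, fell from 15.9 ± 2.2 to 10.4 ± 0.88 CPM (log2 fold change -0.61, edgeR adjusted p = 0.0313), and Neto2, an auxiliary subunit of kainate receptors, from 47.4 ± 5.0 to 37.5 ± 0.58 CPM (log2 fold change -0.34, edgeR adjusted p = 0.0445). Of 10 tested modifying enzymes and transporters, 1 was higher (3.1% of all genes) and none lower. It was Src, a kinase that enhances NMDA receptor currents, at 122 ± 3.0 CPM against 148 ± 6.7 CPM (log2 fold change 0.27, edgeR adjusted p = 0.0271). Adarb1, the editing enzyme that acts on the Gria2 codon shown in capitals above, had 217 ± 1.2 CPM and 226 ± 16 CPM (log2 fold change 0.06, edgeR adjusted p = 0.551). The called genes with a positive fold change have GC contents of 54.9% to 62.3% and those with a negative one 36.5% to 44.0%. With GC offsets none of the genes of the 4 lists passed, but the sizes moved unequally. Nptx1 was then at a log2 fold change of 0.30 and Lin7a at -0.49 (edgeR adjusted p = 0.0662 and 0.0953). Src was at 0.17, Cpt1c at 0.13, Grik5 at 0.12, Frrs1l at -0.14 and Neto2 at -0.06. No gene of the 4 lists was called without wild-type mouse 1, wild-type mouse 2, transgenic mouse 2 or transgenic mouse 3, and without wild-type mouse 3 none of the modifying list was.

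The genes whose pattern over the 6 libraries was most like that of Gria2, by Pearson's r of log2 CPM among 11190 other genes, were A830018L16Rik (r = 0.9988), Samd12, Ikzf5, Arcn1 and Aftph (r = 0.9968). For Grin1 they included Mical2 (r = 0.9978), Ank, Uba1 and Iqsec3 (r = 0.9909). The 5 genes most like Gria2 have GC contents of 38.1% to 44.7%, and the 4 named for Grin1 51.4% to 53.5%.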

How the data were processed

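The authors trimmed the reads with Trimmomatic, aligned them to mm10 with STAR and, per the file headers, counted them with featureCounts 1.5.0-p1 (Ensembl 95, strand setting 2, mapping quality of at least 3). The deposited values are raw counts per gene, with exon lengths. Here genes were filtered with filterByExpr (minimum count 10), scaled by TMM and tested with edgeR 4.0.16 (quasi-likelihood test, R 4.3.3) with Benjamini-Hochberg adjustment over 19087 genes. CPM used the TMM-scaled library, FPKM the deposited length. GC and length offsets were loess trends (span 0.5) on the longest coding transcript of GENCODE M21. Ratios were compared by exact permutation over mice. Alternatives used DESeq2 1.42.0, limma-voom 3.58.1, other scalings and filters, and omission of each mouse. Same-strand reads of Gm25749 (in Gria2), Gm22413 (in Gria3) and Gm23811 (in Gria4) cannot be assigned with certainty. The scripts were tested on simulated data. The named genes are all receptor genes, Adarb1, Orai1, every called gene of the 4 partner lists and the 5 genes most like Gria2 and Grin1, of which 1 is not reported here. Grin3b, Gad2, Reln, Erbb4, Glrb and Fam198b are named outside this rule, chosen after their values were seen. The receptor genes and lists were chosen with earlier results of these data known. Depth covers counting error only, and p-values measure the spread between 3 mice a genotype.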

Additional observations from a re-analysis of the deposited data

How the results depend on the processing

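Of 200 log2 fold changes of the 10 receptor genes (20 alternatives each), 161 kept their direction. Gria2 kept its direction in all 20, at -0.50 to -0.12. It passed the threshold in 11 and not in 9, among them GC offsets from the mean of all transcripts, an alternative chosen after seeing the data (-0.30, adjusted p = 0.079), GC and length offsets (-0.12, adjusted p = 0.491) and length offsets with the replicate block (-0.29, adjusted p = 0.0656), and with length offsets it stood at -0.29 (adjusted p = 0.0497). The number of receptor genes called, 1, became 2 with total counts or upper-quartile scaling (Gria4 added) and 3 with the DESeq2 Wald test (Gria3 and Gria4 added). It was 0 with each of the GC offsets and with length offsets plus the replicate block, and 0 to 2 on omission of a mouse. Over all genes, 1355 calls became 2230 with DESeq2, 400 with GC offsets, 435 with GC offsets from the mean of all transcripts, 771 with length offsets, 359 with both, and 77 to 1149 on omission of a mouse.

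Replicate numbers did not pair the mice. The correlations of same-numbered deviations over 11191 genes were 0.399, -0.357 and 0.388. Wild-type mouse 2 correlated best with transgenic mouse 1, and wild-type mouse 3 with transgenic mouse 2 (0.536), while wild-type mouse 3 and transgenic mouse 1 stood at -0.588. A replicate block gave 738 calls, 460 with GC offsets and 596 with length offsets. Under the block Gria2 was called (adjusted p = 0.0363), the kainate and delta list had 0 calls and the auxiliary list 1.

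The partner lists had 1, 2, 3 and 1 calls (other ionotropic, auxiliary, anchoring, modifying). DESeq2 gave 2, 5 and 6 for the first 3. Testing without a count filter gave 5 for anchoring, and length offsets gave 1 for auxiliary and, with the replicate block, 0 for auxiliary and for other ionotropic. GC offsets of each kind gave 0 for other ionotropic and auxiliary, and without the block 0 for all 4, while with GC offsets and the replicate block 2 anchoring genes and 1 modifying gene were called. A lost call does not by itself tell how far the difference moved. With GC offsets the log2 fold change of Nptx1 went from 0.36 to 0.30 and that of Lin7a from -0.61 to -0.49. Src went from 0.27 to 0.17, Cpt1c from 0.22 to 0.13 and Grik5 from 0.25 to 0.12. Frrs1l went from -0.27 to -0.14 and Neto2 from -0.34 to -0.06. On omission of a mouse the ranges were 0 to 1, 0 to 2, 0 to 5 and 0 to 2.

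With GC offsets the log2 ratio of Grin1 to GluN2 genes turned to -0.0779 and that of AMPA to NMDA genes to 0.0335. The rank order in wild-type held for 6 of 10 genes with coding transcript length and for 4 with CPM.

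The following changes of sign concern genes that were not called. With GC offsets, Gria1 was at 0.00965, Grin2a at 0.00285 and Grin2d at -0.127, and with the replicate block too at 0.00663, 0.00203 and -0.129. With GC offsets from the mean of all transcripts, Gria1 was at 0.00216, Grin2d at -0.149 and Grin3a at 0.0452. With length offsets, Gria1 was at 0.0136, Grin1 at 0.0982, Grin2a at 0.0601, Grin2b at 0.00433 and Grin3a at 0.0784, and with the replicate block too at 0.00975, 0.0927, 0.06004, 0.000723 and 0.06802. With GC and length offsets, Gria1 was at 0.0175, Gria3 at 0.00394, Grin2a at 0.0798, Grin2d at -0.0977 and Grin3a at 0.03995. Grin1 was at 0.00081 with DESeq2 size factors, 0.000819 with the Wald test, 0.00353 without a count filter and 0.005001 with at least 10 counts in every library. On omission of a mouse, Gria1 ranged from -0.114 to 0.026, Grin1 from -0.0863 to 0.0602, Grin2d from -0.106 to 0.159 and Grin3a from -0.209 to 0.0808.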

Other observations

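Glrb, which encodes the beta subunit of the glycine receptor and lies beside Gria2, had a log2 fold change of -0.24 (edgeR adjusted p = 0.118). Of 7 tested genes within 1 Mb of Gria2, chosen after its value was seen, 1 was called (Fam198b, log2 fold change -0.64, edgeR adjusted p = 0.0286) and the median log2 fold change was -0.24. Around Gria3, 3 of 5 tested genes were called, with a median of -0.33, and around Gria1 none of 14, with a median of 0.09. Around Grin1 and Grin2c, 6 of 58 and 9 of 58 were called, with medians of 0.12 and 0.17. The counts were 1 of 9 around Gria4 (median -0.08), 0 of 17 around Grin2a (0.02), 2 of 27 around Grin2b (0.02), 11 of 96 around Grin2d (0.13) and 0 of 9 around Grin3a (-0.02). Over all genes tested, 7.1% were called.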
